A study of Mus musculus with 4 samples.

Results

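The genes of glycolysis and of the pentose phosphate pathway were described in mouse peritoneal macrophages, as a set of 36 genes taken by name from 16403 genes listed in the tables. The set was chosen by pathway membership, with earlier results of these data known, and each symbol was matched to its NCBI gene ID. The shares called in the set are thus not an independent contrast with the shares over all genes. All 36 genes were listed in all 4 libraries. RNA was sequenced from peritoneal macrophages of C57BL/6 mice, and there were 4 groups with 1 library each, namely wild-type cells without treatment, wild-type cells with IL-4, TIF1a-/- cells without treatment and TIF1a-/- cells with IL-4. TIF1a is the protein encoded by Trim24, and the TIF1a-/- mice were Trim24 flox/flox mice carrying LysM-Cre, so deletion is limited to the myeloid lineage that uses the lysozyme M promoter. Wild-type littermates served as controls, and mice were 6 to 8 weeks old. In every group, macrophages had been drawn into the peritoneum with 4% thioglycolate, a sterile irritant, over 4 days, had adhered for 4 h and had been kept in 0.5% serum. IL-4 was given at 20 ng/mL for 6 h. The number of mice behind a library is not given in the sources used here.

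Glycolysis splits glucose into pyruvate and yields ATP and NADH, and lactate dehydrogenase turns pyruvate into lactate where NADH has to be reoxidised. The pentose phosphate pathway leaves glycolysis at glucose 6-phosphate, makes NADPH in its oxidative branch and makes ribose 5-phosphate for nucleotides in its non-oxidative branch. Several steps are served by isoforms with different regulation, and macrophages are known to change their glucose use when activated. IL-4 is a type 2 cytokine under which macrophages take on alternative (M2) activation.

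Each library held between 11026033 and 11250099 expected reads, and 3 reads were taken as the amount that a count of 0 still allows. With 1 library per group no difference has a replicate check, and each test on the reads of a pair of libraries compares those libraries and not the conditions. Trim24 was listed at 2.55, 1.48, 0.06 and 0.14 FPKM in the untreated wild-type, IL-4 wild-type, untreated TIF1a-/- and IL-4 TIF1a-/- libraries, so the low values were in the libraries labelled TIF1a-/-. Here and below, FPKM is the read count of a gene divided by its transcript length and by the library total, and the 4 values of a gene stand in that order. Summed macrophage markers lay between 8446 and 14918 FPKM. Cd68 lay between 3005 and 3465 FPKM, Csf1r and Mrc1 were called higher and Cd14 lower with IL-4 in both genotypes, Fcgr1 was called lower with IL-4 in TIF1a-/- and Mertk higher in TIF1a-/- with IL-4. Lyz2, the lysozyme gene at whose locus Cre is expressed, was lower in the TIF1a-/- libraries, with log2 ratios of -1.12 and -1.18. The other cell type markers, summed over each list, lay between 51.2 and 89.1 FPKM for 7 neutrophil markers, most of it Csf3r and higher in both IL-4 libraries, between 37.1 and 44.5 FPKM for 7 B cell markers, between 3.27 and 8.88 FPKM for 11 T and NK cell markers, between 4.03 and 8.46 FPKM for 10 eosinophil and mast cell markers and between 2.66 and 2.91 FPKM for 7 dendritic cell markers. Mpo and Elane of neutrophils, Pax5 of B cells and Ncr1, Klrb1c, Nkg7 and Gzma of T and NK cells were at 0 in at least 1 library. Summed mesothelial and fibroblast markers were at 51.6, 46.8, 26.2 and 48.2 FPKM, and 6 of these 11 genes were called lower in the untreated TIF1a-/- library, 4 were called higher with IL-4 in TIF1a-/-, and 2 were called higher and 3 lower between the genotypes with IL-4. Erythroid markers summed to 11.4, 8.92, 4.74 and 4.1 FPKM. Their part in the results was not tested. In a bulk sample, fewer cells of a type and less RNA per cell cannot be told apart. In the response of the wild-type to IL-4, the log2 ratios of the 10443 genes that averaged 1 FPKM or more followed transcript length, with a median of 0.15 over the 2614 of them with the shortest and of -0.27 over the 2612 with the longest transcripts. In the TIF1a-/- response these medians were 0.03 and -0.06. Where a value is given with the length trend removed, a smooth curve of each library over transcript length was subtracted first. In the wild-type this moved the genes called from 766 higher and 1228 lower to 809 higher and 817 lower.

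Transcripts of the pathway were abundant and made up a similar share of each library. The 36 genes took 1.06% of the reads in untreated wild-type macrophages (95% Wilson interval, 1.06% to 1.07%), 1.11% with IL-4 (1.10% to 1.11%), 1.05% in untreated TIF1a-/- macrophages (1.04% to 1.06%) and 1.07% with IL-4 (1.06% to 1.07%). These intervals cover counting error only. Averaged over the libraries, 13 genes exceeded 100 FPKM, 15 lay between 10 and 100 FPKM and 8 lay under 10 FPKM. The highest levels belonged to glycolytic enzymes. Gapdh, which oxidises glyceraldehyde 3-phosphate, had a mean level of 1375 FPKM, followed by the aldolase Aldoa at 933 FPKM and the pyruvate kinase Pkm at 629 FPKM. Lower in the order stood Ldha, the main subunit of lactate dehydrogenase, at 341 FPKM and the mutase Pgam1 at 339.9 FPKM. Ldha was below Pgam1 in both untreated libraries and above it in both IL-4 libraries. The lowest member was Slc2a3, a high-affinity glucose carrier, whose 12 to 18 reads per library gave 0.27 to 0.41 FPKM. Reads per gene had a median of 1080 over the members and of 113 over all genes, so counting error was smaller for most members than for a typical gene. Expected counts of 10 members, among them Gapdh, Ldha, Gpi1, Pfkl and Pfkfb3, were not whole in at least 1 library, which means that part of their reads was divided among similar genes.

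**Figure D1:**
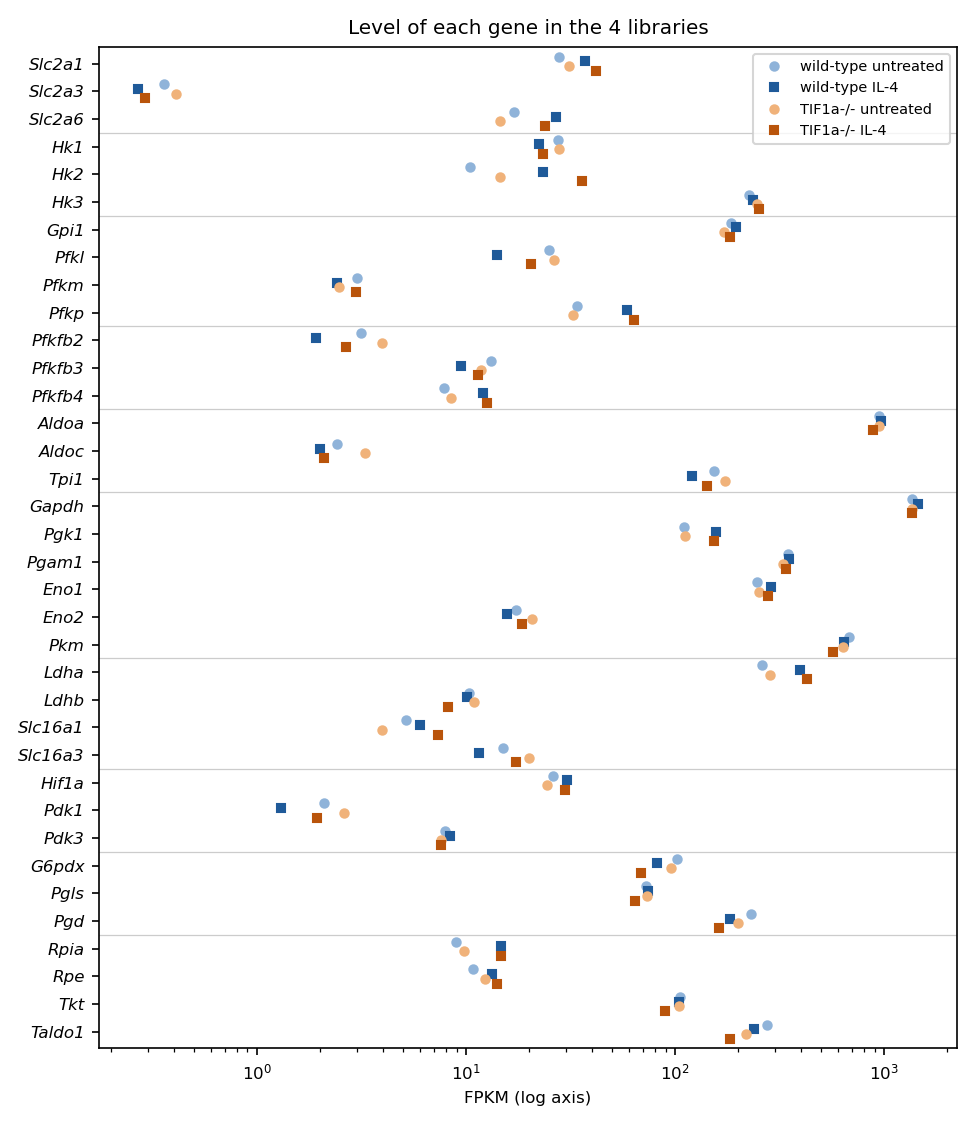
FPKM of each of the 36 genes on a log axis, with 1 point per library (circles untreated, squares IL-4, blue wild-type, orange TIF1a-/-) and grey lines between steps of the pathway. Levels span from under 1 FPKM for Slc2a3 to 1375 FPKM, on average, for Gapdh, and for most genes the 4 points lie close together, with Hk2, Pfkp and Pfkl among those that spread.

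To ask how IL-4 changed the pathway, the treated and untreated libraries of each genotype were compared. In wild-type macrophages 9 of the 36 genes were called, that is 25% of them, against 12.8% of all 15593 genes tested. To be called, a gene needed a fold above 1.5 on FPKM + 0.1 and, in Fisher's exact test (two-sided), an adjusted p below 0.05. Of the 9 genes, 6 were called higher (Slc2a6, Hk2, Pfkp, Pfkfb4, Ldha and Rpia), against 4.91% of all genes, and 3 were called lower (Pfkl, Pfkfb2 and Pdk1), against 7.88% of all genes. In TIF1a-/- macrophages 6 genes were called, or 16.7% against 9.32% of all genes. Of these, 5 were called higher (Slc2a6, Hk2, Pfkp, Ldha and Slc16a1), against 5.29% of all genes, and Aldoc was the 1 gene called lower, against 4.03% of all genes. The members had more reads than a typical gene. Among genes averaging 1 FPKM or more, the shares called were 15.7% in the wild-type and 11.8% in TIF1a-/-. The median log2 ratio of the members was 0.02 in the wild-type and -0.02 in TIF1a-/-, beside medians of -0.03 and 0.00 over all genes. The 2 comparisons share no library, and 31 of 36 genes had a response of the same sign in both. The share of all genes with the same sign was not computed, so this count is not read as a trait of the pathway. The fold as well as the p mattered for these counts, because 25 members in the wild-type and 23 in TIF1a-/- had an adjusted p under 0.05 by the exact test. The share of all genes passing on p alone was not taken, so these 2 counts have no background. The exact test knows counting error alone, and where a biological coefficient of variation of 0.2 between libraries was assumed instead, no member was called in any comparison of a pair of libraries.

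**Figure D2:**
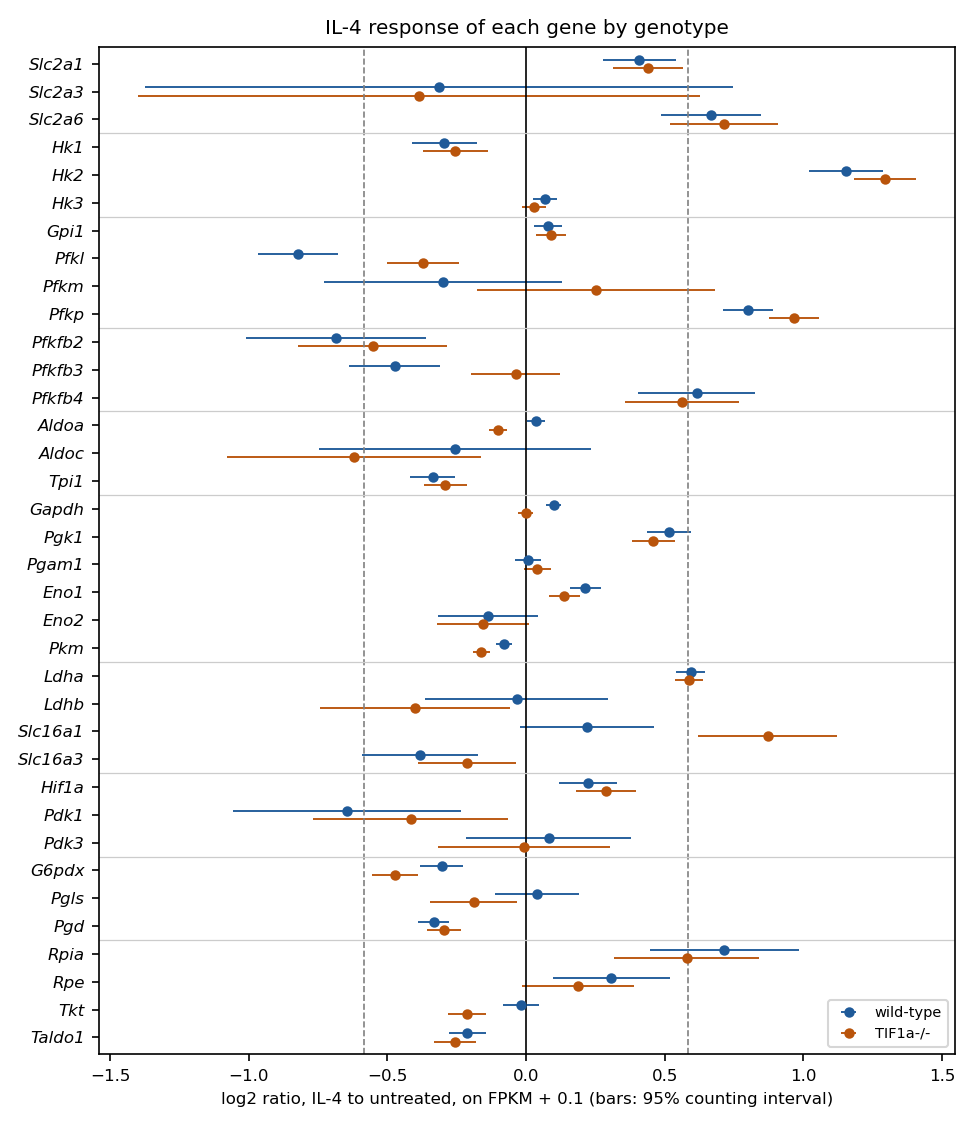
The log2 ratio of IL-4 to untreated for each gene in wild-type (blue) and TIF1a-/- macrophages (orange), with 95% intervals from counting error alone. Dashed lines mark a 1.5-fold change in either direction. Hk2, Pfkp and Slc2a6 lie beyond the upper line in both genotypes, Ldha lies on it, Pfkl lies beyond the lower line in the wild-type alone and Slc16a1 beyond the upper line in TIF1a-/- alone.

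Slc2a6, Hk2, Pfkp and Ldha were called higher in both genotypes, which is 11.1% of the members, against 3.56% of all 14960 genes tested in both. They code for a glucose carrier, the enzyme that traps glucose in the cell, the enzyme of the committed step and the enzyme that makes lactate. No member was called lower in both genotypes, against 2.91% of all genes. The stretches before the start sites of these 4 genes are shown because the genes moved together. Each window holds the core of the hypoxia response element, the sequence that the transcription factor HIF-1 recognises. They are RefSeq sequences of GRCm38.p6, each of 250 bases ending just before an annotated transcript start, 5′ to 3′ on the strand of the gene. For Ldha and Pfkp the window shown lies inside the span of the gene given below. Capitals mark ACGTG or GCGTG on either strand (CACGT or CACGC on the other). In Ldha they also mark TTC and GAA 4 bases apart, the spacing that STAT6 prefers.
Hk2, chr6:82774455-82774704, minus strand: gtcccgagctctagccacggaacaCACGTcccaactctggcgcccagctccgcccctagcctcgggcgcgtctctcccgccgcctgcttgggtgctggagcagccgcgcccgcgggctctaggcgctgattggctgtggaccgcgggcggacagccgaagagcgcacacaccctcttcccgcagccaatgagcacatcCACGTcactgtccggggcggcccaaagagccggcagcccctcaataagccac
Pfkp, chr13:6648772-6649021, minus strand: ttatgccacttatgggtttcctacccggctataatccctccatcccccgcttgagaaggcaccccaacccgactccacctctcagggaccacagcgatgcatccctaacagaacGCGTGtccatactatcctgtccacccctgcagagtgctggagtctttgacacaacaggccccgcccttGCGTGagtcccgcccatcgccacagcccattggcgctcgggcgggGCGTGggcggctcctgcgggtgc
Slc2a6, chr2:27027999-27028248, minus strand: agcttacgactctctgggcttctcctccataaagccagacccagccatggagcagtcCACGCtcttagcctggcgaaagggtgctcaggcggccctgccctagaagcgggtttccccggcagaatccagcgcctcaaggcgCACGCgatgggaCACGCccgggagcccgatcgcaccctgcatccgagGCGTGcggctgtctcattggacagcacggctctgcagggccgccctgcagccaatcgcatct
Ldha, chr7:46845554-46845803, plus strand: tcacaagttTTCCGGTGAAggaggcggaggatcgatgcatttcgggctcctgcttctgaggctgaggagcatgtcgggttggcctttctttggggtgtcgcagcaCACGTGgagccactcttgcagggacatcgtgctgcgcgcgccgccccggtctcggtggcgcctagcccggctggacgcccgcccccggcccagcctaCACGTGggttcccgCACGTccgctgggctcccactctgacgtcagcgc

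The Hk2 window held ACGTG 2 times, counted over both strands, the Pfkp window held GCGTG 3 times and the Slc2a6 window held it 4 times. Ldha had 2 windows, and the window shown held ACGTG 5 times, since the palindrome CACGTG counts on each strand, and the STAT6-type spacing 1 time. Its other window, not shown, held GCGTG 1 time and neither ACGTG nor that spacing. In all, 35 of 36 genes had at least 1 such window, and 51 windows belonged to them. ACGTG was in 37.3% of these windows and in 16.6% of all 32851 windows of the same length. GCGTG was in 56.9% of the windows of the set and in 28.2% of all windows, and the STAT6-type spacing was in 9.80% and 5.85%. Windows of the set also had a higher median GC content, 60.4% against 52.4%, and the part of base composition in these shares was not tested. Either hypoxia core was in 80.4% of the windows of the set and in 38.6% of all windows, and 31 of the 35 genes had one, so holding it does not set these 4 genes apart within the set. A match is a run of letters and was not measured as a binding site here.

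At the entry of glucose, the 2 carriers that were well expressed both had higher levels with IL-4. Slc2a6 (gene ID 227659, chromosome 2 from 27021363 to 27028000), a carrier of intracellular membranes, was listed at 16.9, 26.9, 14.5 and 23.9 FPKM. The levels with IL-4 lay above both untreated levels. Its log2 ratio was 0.67 in the wild-type (counting SE 0.092, Fisher's exact test, adjusted p = 1.24e-12) and 0.71 in TIF1a-/- (SE 0.099, exact test, adjusted p = 3.12e-12). Slc2a1, the carrier GLUT1 of the plasma membrane, was listed at 27.9, 37.0, 30.9 and 41.9 FPKM. It was the most abundant carrier in every library, and its ratios of 0.41 and 0.44 on the log2 scale stayed under the 1.5-fold threshold. Slc2a3 was too low for a response to be detectable, with log2 ratios of -0.31 (SE 0.54) and -0.39 (SE 0.52).

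Hexokinase phosphorylates glucose and so keeps it in the cell. Hk2 (gene ID 15277, chromosome 6 from 82725025 to 82774454), the inducible isoform that binds mitochondria, was listed at 10.4, 23.2, 14.5 and 35.8 FPKM, from 640 to 2204 reads. Both levels with IL-4 were above both untreated levels, and each TIF1a-/- level was above the wild-type level of the same treatment. Hk2 had the largest response of the 36 genes in both genotypes, with a wild-type log2 ratio of 1.15 (SE 0.068, exact test, adjusted p = 4.65e-68) and a TIF1a-/- ratio of 1.29 (SE 0.057, exact test, adjusted p = 4.66e-124). Hk3, the isoform typical of myeloid cells, dominated the step at 225, 235, 246 and 251 FPKM. Its level differed little among the libraries, and the IL-4 ratios were 0.07 and 0.03 on the log2 scale. Hk1, the constitutive isoform, lay between 22.4 and 27.9 FPKM, with ratios of -0.29 and -0.26. As a share of the summed FPKM of the 3 isoforms, Hk2 made up 3.96% in untreated wild-type macrophages (95% Wilson interval, 3.66% to 4.27%), 8.26% with IL-4 (7.85% to 8.69%), 5.03% in untreated TIF1a-/- macrophages (4.72% to 5.37%) and 11.5% with IL-4 (11.1% to 12.0%). Hk3 remained the main isoform, with a share of 80.9% to 85.6%.

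At phosphofructokinase, the committed step of glycolysis, the balance of the isoform transcripts differed with IL-4. Pfkp (gene ID 56421, chromosome 13 from 6579874 to 6649060), the platelet isoform, was listed at 33.9, 59.1, 32.5 and 63.5 FPKM. The untreated levels of both genotypes were alike and the levels with IL-4 were higher, with log2 ratios of 0.80 (SE 0.046, exact test, adjusted p = 1.62e-68) and 0.97 (SE 0.046, exact test, adjusted p = 1.23e-99). Pfkl, the liver isoform, was listed at 24.9, 14.0, 26.3 and 20.3 FPKM. It was lower in each IL-4 library than in both untreated libraries. It was called lower in the wild-type (log2 ratio -0.82, SE 0.074, exact test, adjusted p = 1.70e-28), and its ratio of -0.37 in TIF1a-/- stayed within 1.5-fold. Pfkm, the muscle isoform, lay between 2.41 and 2.99 FPKM and was not called. The share of Pfkp in the summed FPKM of the 3 isoforms was thus 54.8% without and 78.2% with IL-4 in the wild-type, and 53.0% and 73.2% in TIF1a-/-. That of Pfkl was 40.3% and 18.6% in the wild-type and 43.0% and 23.4% in TIF1a-/-, and the Wilson intervals of treated and untreated libraries did not overlap for either gene. Summed over the isoforms, phosphofructokinase was listed at 61.8, 75.5, 61.3 and 86.8 FPKM.

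Shares also shifted among the transcripts of the Pfkfb enzymes, which make and break down fructose 2,6-bisphosphate, the activator of phosphofructokinase. Their summed level was 24.1, 23.3, 24.2 and 26.7 FPKM and so differed little. Within it, Pfkfb4 took 32.5% and 51.5% without and with IL-4 in the wild-type and 35.1% and 47.1% in TIF1a-/-. Pfkfb4 was called higher in the wild-type, with a log2 ratio of 0.61 (SE 0.108, exact test, adjusted p = 5.18e-08), and its TIF1a-/- ratio of 0.56 lay just under the threshold. Pfkfb3, the isoform with predominant kinase activity, was listed at 13.1, 9.40, 11.8 and 11.5 FPKM, and was lower in the IL-4 wild-type library than in the other 3. Its log2 ratio with IL-4 was -0.47 in the wild-type and -0.04 in TIF1a-/-, so its level hardly differed in the latter. Pfkfb2 was called lower in the wild-type at -0.69 (SE 0.165, exact test, adjusted p = 3.39e-10) and had a ratio of -0.55 in TIF1a-/-. Transcripts of Pfkfb2 averaged 6039 bases, the longest of the set, and with the trend over transcript length removed its wild-type ratio became -0.38, under the threshold.

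**Figure D3:**
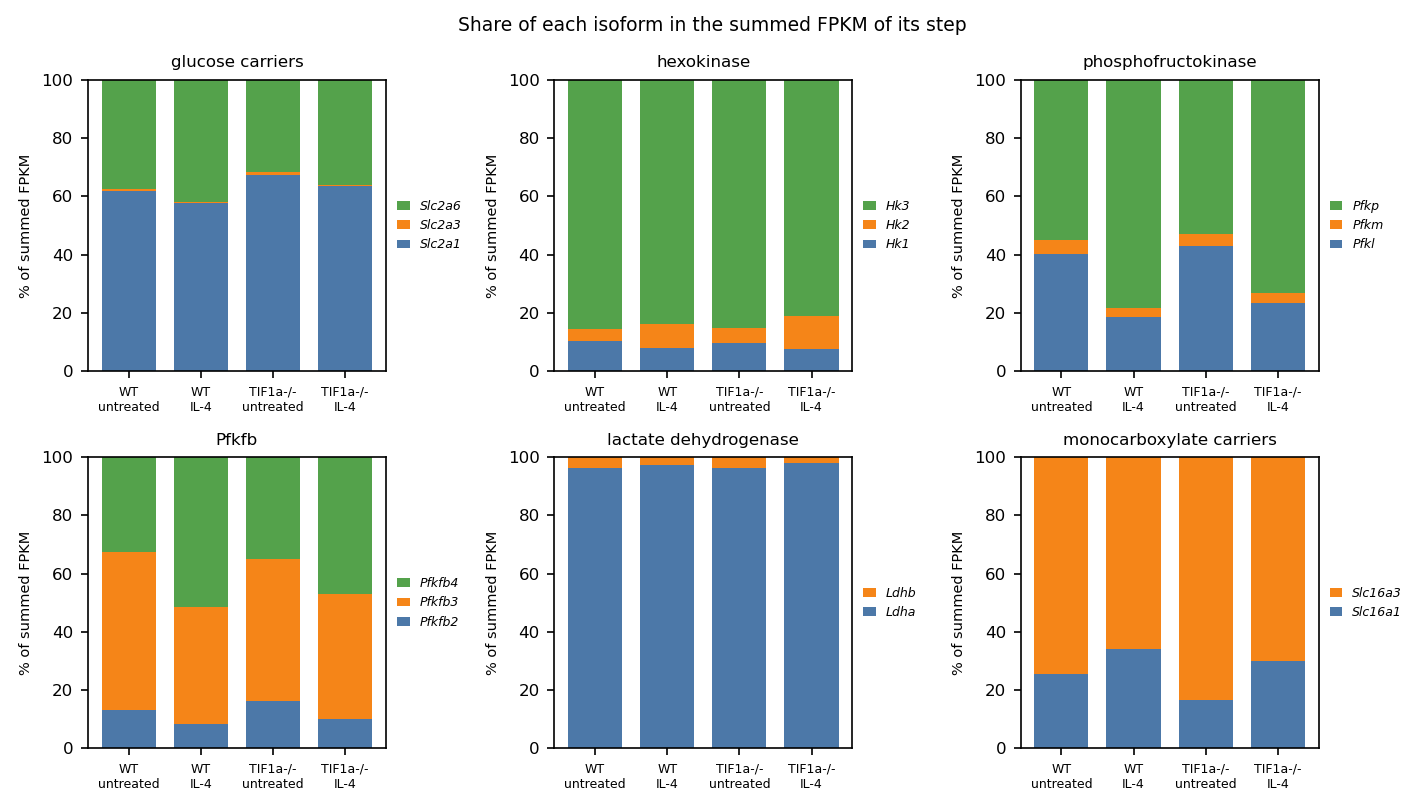
Share of each isoform, in percent, in the summed FPKM of its step, with 1 stacked bar per library for 6 steps. Pfkp takes a larger part of phosphofructokinase with IL-4 (78.2% and 73.2%) than without (54.8% and 53.0%) and Hk2 a larger part of hexokinase, which Hk3 dominates throughout, while Ldha makes up 96.2% to 98.1% of lactate dehydrogenase.

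The enzymes from aldolase to pyruvate kinase, shared by glycolysis and gluconeogenesis apart from the last, were abundant and changed by less than 1.5-fold, with 1 exception. That exception was Aldoc, a minor aldolase, called lower with IL-4 in TIF1a-/- at a log2 ratio of -0.62 (SE 0.234, exact test, adjusted p = 0.0297) from levels of 2.01 to 3.27 FPKM. Aldoa was listed at 944, 968, 943 and 878 FPKM and accounted for 99.7% to 99.8% of aldolase. Gapdh was listed at 1350.9, 1448, 1352 and 1349.7 FPKM, with a single higher value in the IL-4 wild-type library. Its wild-type ratio was 0.10 on the log2 scale and turned to -0.02 with the length trend removed. Pgk1, which makes the first ATP of the pathway, was listed at 109.9, 157, 111 and 153 FPKM, and had the largest ratios among the enzymes from aldolase to pyruvate kinase with over 100 FPKM, 0.51 and 0.46 on the log2 scale. Eno1, the main enolase, showed ratios of 0.21 and 0.14. Tpi1, which interconverts the triose phosphates, was listed at 153, 121, 173 and 142 FPKM, lower with IL-4 in each genotype by ratios of -0.34 and -0.29. Pkm, with ratios of -0.08 and -0.16, and Pgam1, with 0.01 and 0.04, stayed close to their untreated levels.

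Among transcripts for lactate formation and export, Ldha was higher with IL-4 and the balance of the carrier transcripts differed. Ldha (gene ID 16828, chromosome 7 from 46842274 to 46855627) was listed at 261, 394, 284 and 426 FPKM. Both levels with IL-4 were above both untreated levels, with a wild-type log2 ratio of 0.59 (SE 0.027, exact test, adjusted p = 7.55e-109) and 0.59 in TIF1a-/- (SE 0.026, exact test, adjusted p = 6.00e-114). These ratios stood just at the 1.5-fold threshold, 1.509-fold and 1.501-fold, and were 0.50 and 0.55 with the length trend removed, so that the difference between the libraries was far beyond counting error while the call itself depended on the threshold. Ldhb, the subunit that favours the use of lactate, took 3.81% and 2.50% of lactate dehydrogenase without and with IL-4 in the wild-type and 3.69% and 1.89% in TIF1a-/-. Slc16a1, which codes for the carrier MCT1, was listed at 5.14, 6.00, 3.97 and 7.34 FPKM from 196 to 362 reads. Its lowest and its highest level were both in TIF1a-/- libraries, and it was called higher with IL-4 there, with a log2 ratio of 0.87 (SE 0.128, exact test, adjusted p = 2.26e-11), while the wild-type ratio was 0.22 (SE 0.123, exact test, adjusted p = 0.177). Slc16a3, which codes for the exporter MCT4, was listed at 15.03, 11.5, 20.03 and 17.3 FPKM. It was lower with IL-4 in each genotype, by ratios of -0.38 and -0.21, without reaching 1.5-fold.

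Among the regulators, Hif1a, the oxygen-regulated subunit of HIF-1, was listed at 26.0, 30.3, 24.3 and 29.7 FPKM. Its ratios of 0.22 and 0.29 were within 1.5-fold. Pdk1 and Pdk3 inhibit pyruvate dehydrogenase and so hold pyruvate back from the mitochondrion. Pdk1 was called lower in the wild-type at -0.65 (SE 0.210, exact test, adjusted p = 0.00538), from 121 and 77 reads, and had a ratio of -0.42 in TIF1a-/-. With the length trend removed the wild-type ratio was -0.41 and no longer called. Pdk3 lay between 7.58 and 8.35 FPKM in the 4 libraries.

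No gene of the oxidative branch of the pentose phosphate pathway was called. Its 3 genes summed to 403, 338, 368 and 295 FPKM. Pgd, the 6-phosphogluconate dehydrogenase, was the most abundant of them and was listed at 229, 182, 199 and 162 FPKM. G6pdx, the dehydrogenase that commits glucose 6-phosphate to the pathway, was listed at 101, 82.1, 95.6 and 68.8 FPKM. Log2 ratios were -0.33 and -0.30 for Pgd and -0.30 and -0.47 for G6pdx, each far larger than its counting SE of 0.029 to 0.042. Pgls, the lactonase between them, had ratios of 0.04 and -0.19. In the non-oxidative branch, which exchanges sugars with glycolysis, the transaldolase Taldo1 was listed at 275, 237, 219 and 183 FPKM. It was lower with IL-4 in each genotype and lower in each TIF1a-/- library than in the wild-type library of the same treatment. The transketolase Tkt lay between 89.3 and 105 FPKM. Rpia, the isomerase that makes ribose 5-phosphate, was the 1 gene of the pathway called higher, at 8.94, 14.7, 9.81 and 14.7 FPKM. Its log2 ratio was 0.72 in the wild-type (SE 0.137, exact test, adjusted p = 7.83e-07), and 0.58 in TIF1a-/-, which was just under 1.5-fold. Rpe, the epimerase, had ratios of 0.31 and 0.19.

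To use all 4 libraries in 1 test, edgeR was run with additive terms for genotype and treatment, in which the genotypes stand in for replicates of the treatment and 1 residual degree of freedom remains. It called 17 of 36 genes for IL-4 at an adjusted p under 0.05, or 47.2%, with no minimum fold, against 25.3% of all 11791 genes tested. Higher were 10 genes (Slc2a1, Slc2a6, Hk2, Pfkp, Pfkfb4, Pgk1, Ldha, Slc16a1, Hif1a and Rpia), against 12% of all genes. Lower were 7 genes (Hk1, Pfkl, Pfkfb2, Tpi1, Pdk1, G6pdx and Pgd), against 13.3% of all genes. Its estimates ran from -0.83 for Pfkfb2 to 1.24 for Hk2. The count of genes called lower was the less stable, being 3 with a DESeq2 Wald test in place of edgeR and 2 when every gene with a read was kept.

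To ask whether the pathway depended on TIF1a, the genotypes were compared within each treatment. Without IL-4, no member was called, against 1.58% of all 15623 genes (0.839% higher and 0.742% lower). Nor was any member called in 1 direction in both treatments, against 0.418% of all genes higher and 0.155% lower. By Fisher's exact test, 15 members had an unadjusted p under 0.05 and 11 had an adjusted p under 0.05, all with differences within 1.5-fold, and edgeR's additive model called 2 members for genotype across both treatments. For the exact test, the share of all genes passing on p alone was not taken. The median log2 ratio of the members was 0.03, beside -0.0038 over all genes. The lowest ratio among those 11 was that of Taldo1 at -0.33 (SE 0.035, exact test, adjusted p = 5.38e-19) and the highest that of Hk2 at 0.48 (SE 0.075, exact test, adjusted p = 5.70e-09). With IL-4, Hk2 was the 1 member called, or 2.78% against 3.81% of all 15573 genes, and it was higher in TIF1a-/- macrophages (log2 ratio 0.62, SE 0.049, exact test, adjusted p = 2.85e-36). With an assumed coefficient of variation of 0.1 it was not called (edgeR exact test, adjusted p = 0.17). Of all genes, 3.05% were called higher in this comparison and 0.764% lower, that is 475 and 119 genes, which became 218 and 98 genes with the length trend removed.

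**Figure D4:**
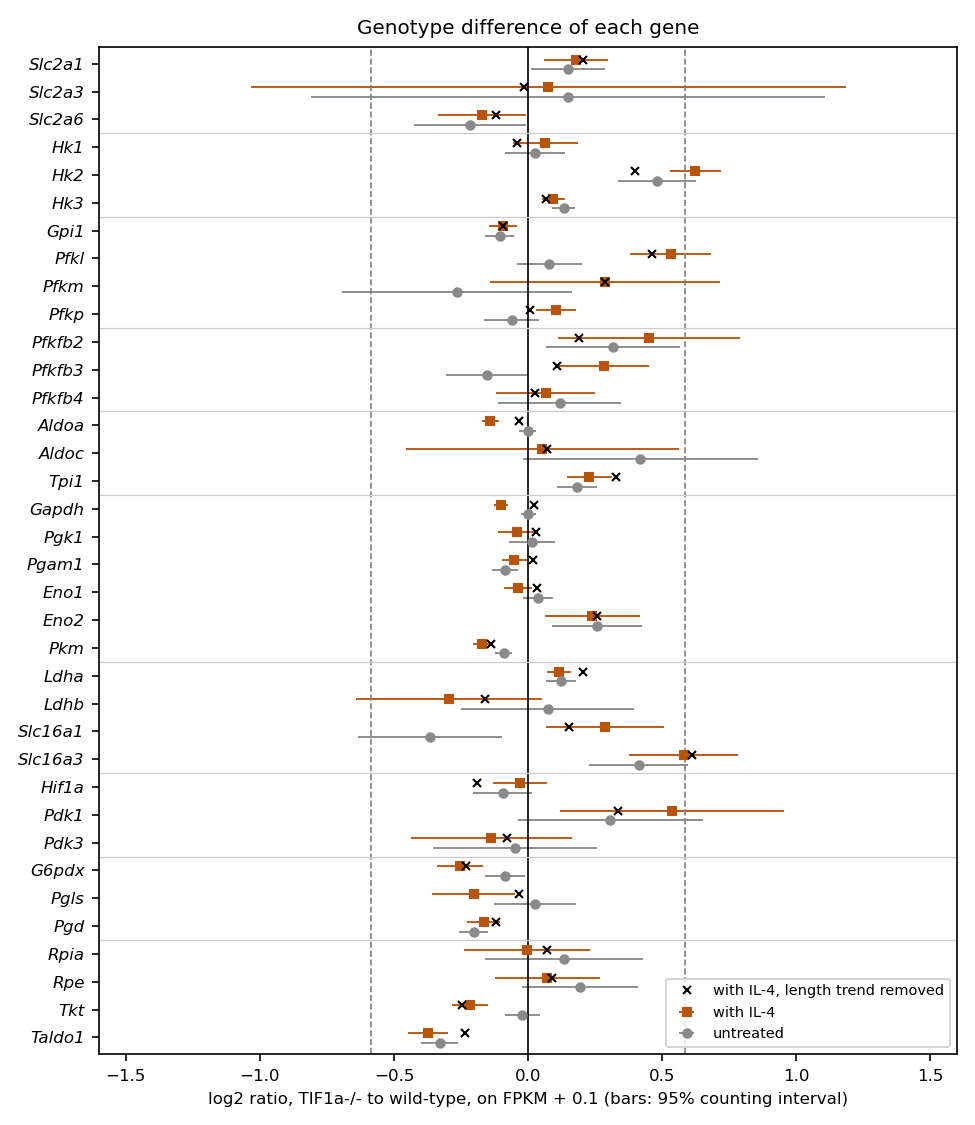
The log2 ratio of TIF1a-/- to wild-type for each gene without IL-4 (grey circles) and with IL-4 (orange squares), with 95% intervals from counting error alone, and the ratio with IL-4 after removal of the trend over transcript length (crosses). Dashed lines mark 1.5-fold. Most genes lie between them, Hk2 lies beyond the upper line with IL-4 until the trend is removed, and Slc16a3 lies just beyond it only afterwards.

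The Hk2 difference between genotypes was sensitive to transcript length. Hk2 transcripts averaged 5524 bases, against a median of 2660 over the members, and with IL-4 the genotype ratios of the genes that averaged 1 FPKM or more had a median of -0.14 over those with the shortest and of 0.24 over those with the longest transcripts. With that trend removed, the Hk2 ratio with IL-4 became 0.40 and was no longer called, whereas without IL-4 it was 0.48 as deposited and 0.47 with the trend removed. Slc16a3 had ratios of 0.41 without and 0.58 with IL-4 (SE 0.104, exact test, adjusted p = 6.14e-07), and removal of the trend left the latter at 0.61, past the threshold. The additive model called Hk2 and Slc16a3 higher in TIF1a-/- macrophages, or 5.56% of the members against 1.66% of all genes, at edgeR adjusted p-values of 0.00571 and 0.0289. No member was called lower, against 0.373% of all genes, and Taldo1 stood nearest with an estimate of -0.35 (edgeR adjusted p = 0.0564). Pfkl was higher in TIF1a-/- macrophages with IL-4 at a ratio of 0.53 (SE 0.077, exact test, adjusted p = 1.02e-10), within 1.5-fold, and its ratio without IL-4 was 0.08.

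Whether IL-4 acted differently in the genotypes was tested on the 4 counts of each gene by an exact conditional test. The difference passed the thresholds for 1 member, Slc16a1, or 2.78% against 2.03% of all 14960 genes (1.74% with the larger response in TIF1a-/- and 0.287% in the wild-type). Its log2 response was 0.65 larger in TIF1a-/- than in wild-type macrophages (95% counting interval, 0.30 to 0.998, exact test, adjusted p = 0.00384), and 0.52 with the length trend removed (exact test, adjusted p = 0.0663). For 7 further members the exact test gave an adjusted p under 0.05 with a difference within 1.5-fold, namely Pfkl (0.45), Pfkfb3 (0.44), Tkt (-0.20), G6pdx (-0.17), Aldoa (-0.14), Gapdh (-0.10) and Pkm (-0.08). With the length trend removed these were 0.38, 0.27, -0.24, -0.17, -0.07, -0.01 and -0.07 in the same order. Here too, no share over all genes was taken for p alone. For the 4 genes called higher with IL-4 in both genotypes the difference did not pass the test. It was 0.14 for Hk2 (interval, -0.03 to 0.32), 0.17 for Pfkp (0.04 to 0.29, exact test, adjusted p = 0.107), 0.05 for Slc2a6 (-0.22 to 0.31) and -0.01 for Ldha (-0.08 to 0.07).

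Genes next to the set were taken from lists of neighbouring pathways, and their calls stand beside 12.8% of all genes called for IL-4 in the wild-type and 9.32% in TIF1a-/-. Counts as small as these were not taken to differ from those shares. Of 19 further genes of glycolysis and glucose entry in the tables, Pgm2l1 was called lower with IL-4 in the wild-type, and Slc2a9 was called higher and Pgm2l1 and Eno3 lower in TIF1a-/-. Of 9 further genes of the pentose phosphate pathway and of ribose use, Prps1 was called higher in both genotypes and H6pd lower in the wild-type. Prps1, which activates ribose 5-phosphate to phosphoribosyl pyrophosphate for nucleotide synthesis, was listed at 6.95, 19.5, 6.55 and 16.4 FPKM. Its log2 ratios were 1.47 in wild-type and 1.31 in TIF1a-/- macrophages. Of 22 genes that handle pyruvate and lactate, Gpd1, a glycerol 3-phosphate dehydrogenase at under 2 FPKM, was called higher in both genotypes. Among genes of gluconeogenesis and glycogen, Gyg, the glycogenin that primes glycogen, was called lower in both genotypes, at 115, 73.7, 124 and 68.6 FPKM, and in TIF1a-/- Ugp2 was called lower and Pck2 higher. Among genes of hexosamine and nucleotide sugar synthesis, Gnpnat1 was called higher in both genotypes and Gmppb in the wild-type. None of the genes named here from these lists was called between the genotypes in either treatment. The difference of IL-4 responses, however, passed the thresholds of the exact conditional test for Pck2, alone among these named genes. Its log2 response was 0.63 larger in TIF1a-/- than in wild-type macrophages (counting interval, 0.30 to 0.96), and 0.58 larger with the length trend removed. Pck2 was listed at 7.51, 9.21, 5.59 and 10.7 FPKM.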

How the data were processed

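Total RNA of 4 libraries had been sequenced on an Illumina HiSeq instrument. The authors used Bowtie to align reads to mouse build GRCm38 and RSEM to quantify genes, and versions, strand setting and duplicate handling are not given in the sources used here. Each deposited table held 1 library with the expected count of each gene, which need not be whole, and the authors' FPKM with 2 decimals, which divides by transcript length and library total. Genes not listed in a library were set to 0. Of 16403 gene IDs, 16365 matched a RefSeq gene table of GRCm38.p6, 38 had no symbol, and no column held comparisons made by the authors. Promoter windows came from RefSeq.

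The members and the other gene lists were chosen with earlier results of these data known. Groups followed the labelled genotype and treatment. Expected counts were rounded, and the reads of each gene against the rest of the library entered Fisher's exact test (two-sided, scipy 1.17.1) with Benjamini-Hochberg adjustment over all genes with a read in the pair. Calls needed a fold above 1.5 and an adjusted p below 0.05 on log2(FPKM + 0.1), a scale that understates changes of low genes. These are the general thresholds in the methods of the study. For its own list of IL-4-regulated genes the paper states other cut-offs, with a larger fold and a looser false discovery rate. Standard errors cover counting error only. The additive model used edgeR 4.0.16 (TMM, filterByExpr, quasi-likelihood test, 1 residual degree of freedom). The difference of responses was tested by an exact conditional test of the odds ratio of 4 counts. Isoform shares are FPKM of a gene over the summed FPKM of its step, with 95% Wilson intervals. The length trend was a lowess curve (fraction 0.3) over log2 transcript length, fitted where transcripts reached 200 bases and mean levels 1 FPKM, and the shifted share was tested by an exact binomial test. The tests were checked on simulated counts. Depth was 11026033 to 11250099 expected reads per library.

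Values in all libraries were given for members called in both IL-4 comparisons, between genotypes or for the difference of responses, and for the most abundant members of each step. From each other list at most 5 genes were named, those called in 1 direction in both IL-4 or both genotype comparisons and averaging 1 FPKM or more. Values of other members called in 1 comparison, and of members near a threshold, and other list genes that make up a small count, were added after their values were seen. Some genes of these lists are not reported here. Alternatives were pseudocounts of 0.01 and 1, a minimum of 1 FPKM, TMM scaling, removal of the length trend, assumed biological coefficients of variation of 0.2 and, added after the data were seen, 0.1, DESeq2 1.42.0, DESeq2 size factors and every gene with a read.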

Additional observations from a re-analysis of the deposited data

Results flagged for a closer look

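The IL-4 response of Slc16a1, which codes for the lactate and pyruvate carrier MCT1, differed between the genotypes in the test of the difference itself. The log2 ratio of IL-4 to untreated was 0.65 higher in TIF1a-/- than in wild-type macrophages (exact conditional test, adjusted p = 0.00384), from levels of 5.14 and 6.00 FPKM in the wild-type and 3.97 and 7.34 FPKM in TIF1a-/- without and with IL-4. The untreated TIF1a-/- level was the lowest of the 4 and the IL-4 TIF1a-/- level the highest. The genotype ratio was -0.36 without IL-4 (adjusted p = 0.0865 in Fisher's exact test) and 0.29 after IL-4 (Fisher's exact test, adjusted p = 0.0517). Transcripts of Slc16a1 averaged 4430 bases, and with the length trend removed the difference of the responses was 0.52 (exact test, adjusted p = 0.0663). The test covers counting error of 4 libraries, and variation between mice or cultures was not tested.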

How the results depend on the processing

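With a pseudocount of 1, the members called lower with IL-4 went from 3 to 1 in the wild-type and from 1 to 0 in TIF1a-/-, and the 1 difference of responses, that of Slc16a1, went to 0 called members. With the length trend removed, 1 member was called lower in the wild-type, 0 members differed in their response, Hk2 made up 9.19% of hexokinase in the IL-4 wild-type library in place of 8.26%, and Aldoa changed sign in the wild-type, from 0.036 to -0.0712 on the log2 scale, as did Gapdh from 0.10 to -0.023, Pgls from 0.040 to -0.12, Pgam1 from 0.0072 to -0.069 and Tkt from -0.018 to 0.012. With an assumed coefficient of variation of 0.2, 0 members were called higher and 0 lower in both IL-4 comparisons, and 0 between the genotypes with IL-4, while 258, 272, 15 and 21 of all genes were called in the 4 comparisons, so larger differences elsewhere still passed. At 0.1, 0 members were called lower with IL-4 in TIF1a-/- and 0 higher between the genotypes with IL-4, and 7 and 4 members were called for IL-4 in the wild-type and in TIF1a-/-. In the additive model, the members called lower for IL-4 went from 7 to 3 with DESeq2's Wald test and to 2 with every gene with a read. Those called higher for genotype went from 2 to 1 with DESeq2, to 0 with every gene with a read and to 4 with the length trend as an offset (Hk2, Slc16a3, Tpi1 and Eno2), and the 0 called lower became 1, Taldo1, with DESeq2 size factors and with the length offset. The cause of these changes was not tested. Of 144 counts, medians and isoform shares under these alternatives, 124 were rated as unchanged, as were 1375 of 1434 values of single genes. A count was rated as unchanged while it stayed within 1.5-fold of its main value, and medians and shares had margins of their own. The rating thus allowed small moves, such as from 6 to 5 members called higher with IL-4 in the wild-type with a pseudocount of 1. No pseudocount, filter, scaling or removal of the length trend changed the calls of Slc2a6, Hk2 and Pfkp in both IL-4 comparisons. No library could be left out, since each group has 1. No paired analysis was possible because the labels carry no replicate numbers, other than the additive model, in which genotype is a block for IL-4. Slc2a3, at 12 to 18 reads, was limited by depth.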

Other observations

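Genes of the hypoxia pathway, which is known to regulate part of glycolysis, were taken as a further list. Of 27 genes in the tables, IL-4 gave 2 higher (Higd1a and Edn1) and 3 lower calls (Vegfa, Ndrg1 and P4ha2) in the wild-type. In TIF1a-/- it gave 3 higher (Epas1, Ankrd37 and Egr1) and 1 lower (Vegfa). Some calls rested on few reads, with 0 and 13 for Edn1 and 44 and 23 for P4ha2 in the untreated and IL-4 wild-type libraries. The shares over all genes were 4.91% (higher) and 7.88% (lower) in the wild-type and 5.29% and 4.03% in TIF1a-/-, and these few calls were not taken to differ from those shares. Between the genotypes, Ankrd37 was called higher in TIF1a-/- macrophages without IL-4 and 3 genes with IL-4, namely Epas1, Egln3 and Ankrd37, and none lower, against 0.839% of all genes higher without IL-4 and 3.05% with IL-4. Epas1, which codes for HIF-2α, and Egln3, an oxygen-sensing prolyl hydroxylase, and the other genes of these counts except Vegfa and Ankrd37 were named after their values were seen. Epas1 was listed at 39.6, 44.5, 56.7 and 87.1 FPKM in the untreated wild-type, IL-4 wild-type, untreated TIF1a-/- and IL-4 TIF1a-/- libraries, with a log2 ratio of the genotypes of 0.97 with IL-4 (SE 0.034, Fisher's exact test, adjusted p = 5.57e-183). Epas1 transcripts averaged 5352 bases, and with the length trend removed this genotype ratio was 0.76. Ankrd37, a hypoxia-induced gene, was listed at 0.80, 0.69, 3.42 and 5.94 FPKM, from only 8, 7, 34 and 59 reads. It was called higher in TIF1a-/- macrophages in both treatments. Vegfa, the angiogenic growth factor, was called lower with IL-4 in both genotypes, at 16.3, 7.77, 24.1 and 11.2 FPKM. Hif1a itself differed between the genotypes by log2 ratios of -0.09 and -0.03.

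Pgm2l1, which makes glucose 1,6-bisphosphate, was called lower with IL-4 in both genotypes, at 3.09, 1.21, 3.24 and 1.5 FPKM and log2 ratios of -1.28 and -1.06. Its transcripts averaged 8641 bases, and with the length trend removed the ratios were -0.82 in the wild-type and -0.94 in TIF1a-/-.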
